A study of Mus musculus with 3 samples.

Results

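Cluster 5 of the deposited clustering, in brains with metastases, was a small group of cells in which 8.04% and 8.06% of all UMIs (unique molecular identifiers, the count of captured RNA molecules) came from the mitochondrial genome, against 0.973% to 1.18% in the large clusters 0 and 1. Its cells were chosen by their deposited cluster number 5 and by a hashing tag of a brain with metastases. They numbered 534 of 12421 cells in all and of 11534 cells in the brains with metastases, with 253 in the first such brain (metastasis 1) and 281 in the other (metastasis 2). The median member held 1.57 and 1.66 times the mitochondrial UMIs of the median cluster 0 cell in the 2 brains, and 18.5% and 16.9% of its nuclear UMIs. Within the nuclear RNA, collagens, other genes with a long genomic span, splicing factors and nuclear-retained long RNAs were relatively high, and messages of ribosomal proteins and of respiratory chain subunits were relatively low.

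The experiment was CITE-seq, which reads RNA and the DNA tags of surface antibodies from the same droplet. Brains with metastases came from female C57BL/6 mice aged 2 to 3 months about 2 weeks after E0771 cells, a mouse mammary carcinoma line, had been injected into the carotid artery, and naive brains came from female mice of the same strain and age range without metastases. All mice were perfused, a papain kit was used to digest the brains, and a Percoll gradient enriched the suspensions for immune cells; the sample labels speak of 1 hemisphere. Every brain was stained with 6 surface antibodies (against CD11b, CD86, CD45, CD25, CD4 and CD3) and an individual hashing antibody before pooling, and the tables used here hold 2 brains of each kind while the design text counts 6 samples. Nothing beyond the hashing antibody says that the brains were separate animals. The metastases are grafts of a single line, so the spread over brains is not a spread over tumours of different origin.

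Mitochondria keep a small circular genome whose messages encode core subunits of respiratory complexes I, III and IV and of the ATP synthase, complex V. It also encodes the RNAs of the mitochondrial ribosome. All other subunits, the proteins of the mitochondrial ribosome and the enzymes that copy and transcribe mitochondrial DNA are encoded in the nucleus and imported. Droplet studies often use the mitochondrial share of RNA as a measure of cell quality, and the share also differs among cell types with different demands for respiration.

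Metastasis 1 held 5360 cells with 45724262 UMIs and metastasis 2 held 6174 cells with 57620835 UMIs. No cell barcode was listed more than once, each cell had at least 500 UMIs, and the highest mitochondrial share of any cell was 24.9%. The members' UMIs summed to 829313 and 1040375 in the 2 brains, those of cluster 0 to 22899620 and 24548961, and those of cluster 1 to 9263718 and 10303278. The clusters were made from the RNA of the same cells, so RNA values of cluster 5 against another cluster are given below as descriptions with no test, separately for each brain.

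Cluster 5 held 4.72% of the cells of metastasis 1 (exact 95% binomial interval 4.17 to 5.32) and 4.55% of those of metastasis 2 (4.04 to 5.10). Among clusters 0, 1, 3, 4 and 5 combined it held 6.41% and 6.44%. The intervals of both brains overlap on either base. These intervals cover counting error only, and the percoll step sets which cells were recovered at all.

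The members carried the leading genes of the large clusters. The 50 leading genes of cluster 0 were headed by Esx1, a homeobox gene. They made up a median of 2.64% and 2.41% of a member's nuclear UMIs in the 2 brains. The same measure gave 3.17% and 2.94% in cluster 0 itself, and 2.91% and 2.63% in cluster 1. In cluster 2, whose cells carried CD45, it gave 0.538% and 0.561%. It gave 2.40% and 2.03% in cluster 10, and 2.66% and 2.31% in cluster 11. Clusters 6, 7, 8, 9 and 12 had at most 1.94%. The leading genes thus did not set cluster 5 apart from clusters 10 and 11. Krt8, a keratin of simple epithelia, had a mean of 2.17 UMIs per member, with a UMI in 70.8% of members at a median of 2488.5 nuclear UMIs. In cluster 0 the mean of Krt8 was 8.25 UMIs, with a UMI in 98.0% of cells at a median of 13861 nuclear UMIs. In cluster 2 it was 0.194 UMIs, with a UMI in 10.4% of cells at a median of 1465. In cluster 6 it was 0.925 UMIs, with a UMI in 22.9% of cells at a median of 1141. In cluster 7 it was 2.79 UMIs, with a UMI in 51.8% of cells at a median of 3189. Nuclear CPM are counts per 1000000 nuclear UMIs. On this scale Krt8 stood at 509 and 808 in cluster 5 and at 437 and 662 in cluster 0. It stood at 338 and 544 in cluster 7, 274 and 336 in cluster 6, and 80.6 and 99.2 in cluster 2. Vim, an intermediate filament of mesenchymal cells, stood at 1205 and 1434 nuclear CPM in cluster 5 and at 1535 and 1722 in cluster 0.

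Of a list of 12 carcinoma markers, Krt8 alone passed the filter on low values, and Krt7, Krt19, Krt5, Epcam, Cdh1, Cldn4 and Cldn7 had 0 UMIs in cluster 5. In cluster 0, Krt7, Krt5, Cdh1, Cldn4 and Cldn7 also had 0. Elf3, Krt14, Krt18 and Cldn3 had 6, 3, 2 and 1 UMIs over all 534 members. Among these markers the label "tumour-like" therefore rests on Krt8, and the cells are called cluster 5 here. The label "rich in mitochondrial RNA" has mt-Cytb, mt-Co3, mt-Nd1 and mt-Co1 as its own markers. Their values, described below, are therefore no separate support for it.

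The mitochondrial share set most members apart from the cells of the other large clusters. Its median per cell was 9.25% in metastasis 1 (interquartile range 6.40 to 12.96) and 8.84% in metastasis 2 (5.41 to 13.5), and single members ranged from 2.40% to 24.9%. The highest value was 3.27% among 3152 cells of cluster 0 and 7.67% among 2513 cells of cluster 1. Of those cells, 56 and 33 lay at or above the lowest member, and 0 and 1 lay at or above 3.97%, the level passed by the upper 90% of members. Cluster 3 had 17 of 1180 cells at or above the lowest member and 2 at or above 3.97%, and cluster 4 had 125 of 927 and 19, so cluster 4 overlapped most. No cell of clusters 0, 1, 3 or 4 exceeded the median of the members.

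**Figure D1:**
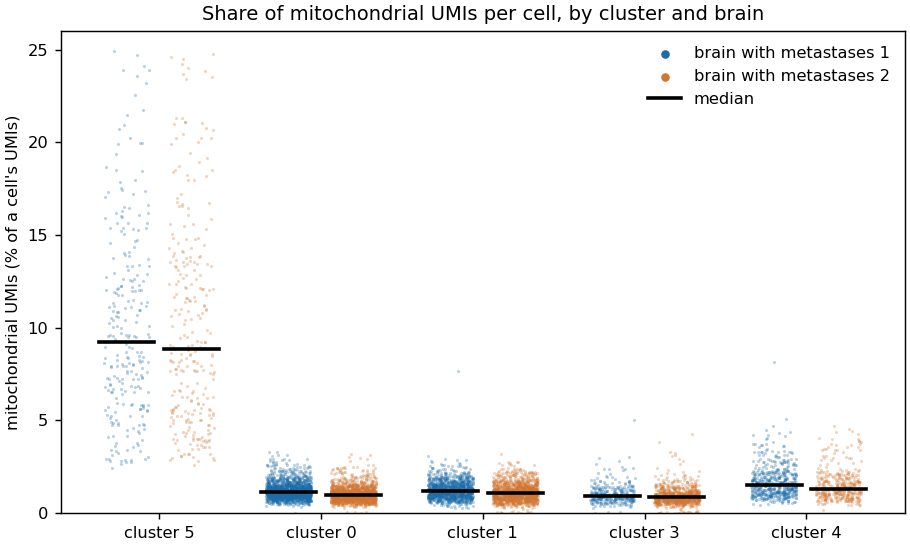
Mitochondrial UMIs as a percent of each cell's UMIs (vertical axis), for clusters 5, 0, 1, 3 and 4, with a point per cell coloured by brain and a bar at the median. The medians of cluster 5 lie at 9.25% and 8.84%, and the highest cell of the other clusters lies at 8.17%.

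On summed UMIs the share was 8.04% in cluster 5 of metastasis 1 and 1.14% in cluster 0, a log2 ratio of 2.82, or 7.04 times. In metastasis 2 the shares were 8.06% and 0.973%, a log2 ratio of 3.05, or 8.28 times. Against cluster 1, whose shares were 1.18% and 1.04%, the log2 ratios were 2.77 and 2.96. Both comparisons use the same cluster 5 cells, so they are not independent of each other. In cells matched on nuclear UMIs the mean log2 ratio over the 2 brains was 1.80 against cluster 0, from 48 and 53 cells of each cluster, and 2.53 against cluster 1.

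Both parts of the ratio differed. A member held a median of 235 and 248 mitochondrial UMIs, a cell of cluster 0 held 150 and 149, and a cell of cluster 1 held 77 and 68. The members' medians were thus 1.57 and 1.66 times those of cluster 0, and 3.05 and 3.65 times those of cluster 1. Nuclear UMIs had medians of 2425 and 2553 in cluster 5, 13089 and 15142 in cluster 0, and 6060.5 and 6070 in cluster 1. The medians of cluster 5 were 5.398 and 5.93 times lower than those of cluster 0, and 2.50 and 2.38 times lower than those of cluster 1. Against cluster 0 the deficit of nuclear UMIs was thus the larger part of the difference, and against cluster 1 the excess of mitochondrial UMIs was. Fewer nuclear molecules in the cell and fewer molecules captured from it cannot be told apart in these counts.

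**Figure D2:**
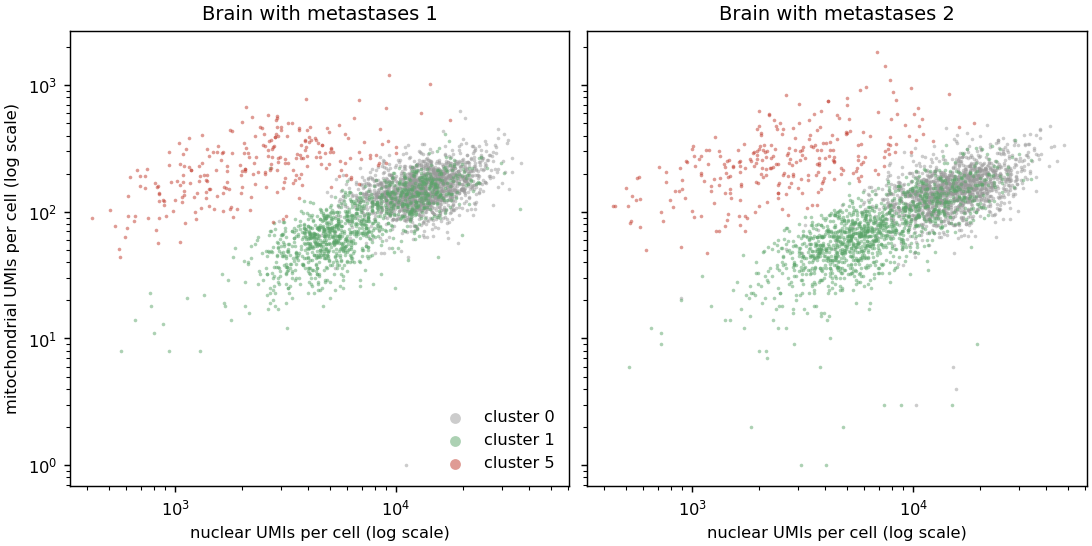
Mitochondrial UMIs against nuclear UMIs per cell, both on log scales, for clusters 0, 1 and 5, with a panel for each brain with metastases and a point per cell. Cluster 5 lies above and to the left of the band formed by clusters 0 and 1, with a median of 235 and 248 mitochondrial UMIs at 2425 and 2553 nuclear UMIs.

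Within cluster 5, cells with more nuclear UMIs also had more mitochondrial UMIs. Pearson's r of the log2 values was 0.61 over 253 cells and 0.59 over 281 cells, against 0.39 and 0.46 in cluster 0 and 0.79 and 0.68 in cluster 1. The percent of mitochondrial UMIs ranked against nuclear UMIs with Spearman's rho of -0.66 and -0.62, and against mitochondrial UMIs with 0.18 and 0.23. Nuclear UMIs are part of the percent's denominator and both counts share the cell's capture, so these are descriptions of the cells and not tests.

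Members held more different genes than other cells at the same depth. Thinned to 1000 nuclear UMIs, which left out 37 and 30 shallower members, a member had a median of 705 and 722 genes. The same measure gave 595 and 596 in cluster 0, 596 and 597 in cluster 1, 602 and 596 in cluster 3, and 592 and 593.5 in cluster 4. Unthinned, a member had 1361 and 1452 genes and a cell of cluster 0 had 3295 and 3540. Nuclear RNA of the members was thus spread over more genes, while its total was lower.

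All 13 mitochondrial genes were past 2-fold in share of UMIs in both brains and in both comparisons. Log2 ratios of the share of all UMIs against cluster 0 ran from 1.35 to 3.80 in metastasis 1 and from 1.58 to 3.84 in metastasis 2. Those against cluster 1 ran from 1.02 to 3.71 and from 1.27 to 3.78. In each of these 4 comparisons mt-Atp8 was lowest and mt-Nd6 highest. The genes are given below by complex, with the start and end on the mitochondrial chromosome from the RefSeq gene table for GRCm38.p6; the submitters name the same assembly as mm10.

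Complex IV, cytochrome c oxidase, passes electrons to oxygen and has its catalytic core encoded by mt-Co1 (5328 to 6872), mt-Co2 (7013 to 7696) and mt-Co3 (8607 to 9390). mt-Co1 had a mean of 57.6 and 78.8 UMIs per member, 36.2 and 41.2 per cell of cluster 0, and 20.8 and 21.7 per cell of cluster 1. mt-Co3 had 54.0 and 58.0 UMIs per member, 29.7 and 27.5 in cluster 0, and 15.1 and 12.9 in cluster 1. For mt-Co2 the means were 14.9 and 14.99 per member, and 11.7 and 11.7 in cluster 0. Each of the 3 genes was thus higher per cell in cluster 5 than in cluster 0 in both brains, as were most of the 13 genes. Complex IV genes together made up 48.0% and 50.9% of mitochondrial UMIs in cluster 5 and 48.7% and 51.0% in cluster 0.

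Complex III, which passes electrons from ubiquinol to cytochrome c, has a single mitochondrial gene, mt-Cytb (14145 to 15288). Its mean was 35.8 and 36.8 UMIs per member, 18.7 and 15.5 in cluster 0, and 10.9 and 8.26 in cluster 1. mt-Cytb was 13.6% and 12.3% of mitochondrial UMIs in cluster 5 against 11.8% and 9.82% in cluster 0. It was higher within the mitochondrial RNA by 0.21 and 0.33 log2 units.

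Complex I, NADH dehydrogenase, has the largest number of mitochondrial subunits. mt-Nd1 (2751 to 3707) had a mean of 19.9 and 19.2 UMIs per member, 9.01 and 8.12 in cluster 0, and 4.89 and 3.64 in cluster 1. mt-Nd4 (10167 to 11544) had 13.8 and 13.3 UMIs per member and 8.28 and 7.57 in cluster 0. mt-Nd2 (3914 to 4951) did not follow them, with 4.81 and 4.56 UMIs per member against 5.43 and 4.32 in cluster 0, or 0.887 and 1.06 times. mt-Nd5, mt-Nd3 and mt-Nd4l had means of 0.470 to 2.27 UMIs per member and were each higher per cell than in cluster 0 in both brains. mt-Nd6 (13552 to 14070), which lies on the opposite strand from the other messages, rests on 67 and 65 UMIs in cluster 5. Complex I genes were 15.9% and 13.7% of mitochondrial UMIs in cluster 5, and 15.7% and 13.96% in cluster 0.

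Complex V makes ATP, and its membrane subunits a and A6L are encoded by mt-Atp6 (7927 to 8607) and mt-Atp8 (7766 to 7969), which overlap. mt-Atp6 had a mean of 58.8 and 68.2 UMIs per member, 37.0 and 38.8 in cluster 0, and 22.0 and 20.1 in cluster 1. mt-Atp8 had 0.664 and 0.712 UMIs per member against 1.11 and 1.05 in cluster 0, or 0.596 and 0.680 times. Reads from the shared stretch cannot be given to either gene with certainty. mt-Atp8 and mt-Nd2 were the only genes of the 13 that were not higher per cell than in cluster 0 in both brains.

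Scaled within mitochondrial UMIs, the 13 genes kept much of their proportions, with 3 that stood apart by more than 0.7 log2 units in both brains. mt-Atp8 was lower by 1.47 log2 units in both brains against cluster 0 and by 1.75 and 1.69 against cluster 1. mt-Nd2 fell below by 0.90 and 0.84 against cluster 0, and by 1.16 in both brains against cluster 1. mt-Nd6 was higher by 0.98 and 0.79 against cluster 0 and by 0.94 and 0.82 against cluster 1. mt-Nd1 was higher by 0.42 and 0.33 against cluster 0.

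**Figure D3:**
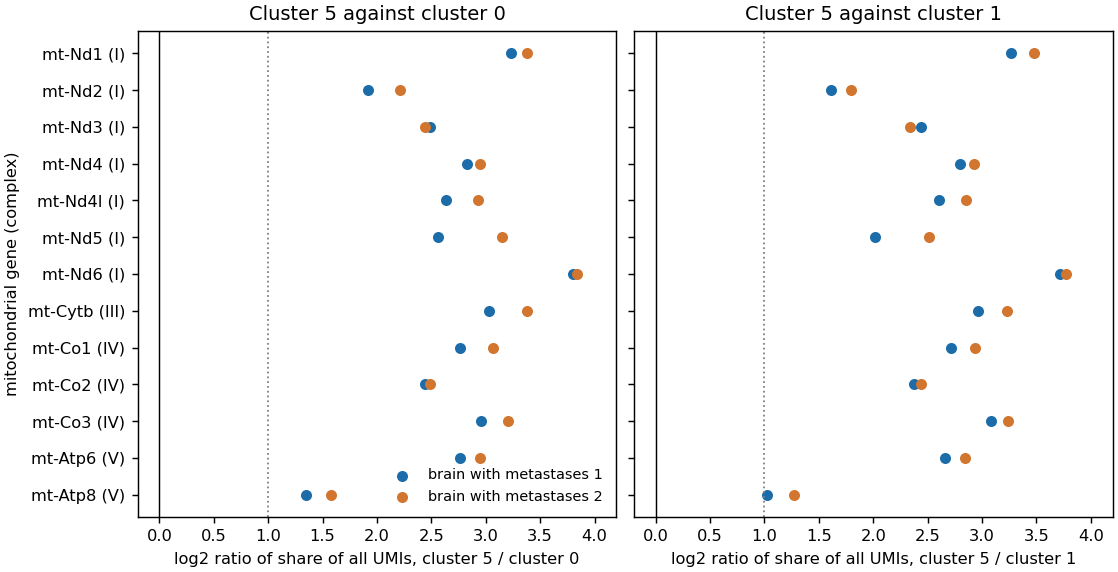
Log2 ratio of each mitochondrial gene's share of all UMIs, cluster 5 over cluster 0 (left) and over cluster 1 (right), with the respiratory complex in brackets and a point for each brain; the dotted line marks 2-fold. Every point lies beyond 2-fold, from mt-Atp8 at 1.35 and 1.58 to mt-Nd6 at 3.80 and 3.84 against cluster 0.

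For nuclear genes the 13 mitochondrial genes were left out and UMIs were summed per cluster and brain and rescaled to nuclear CPM, with 5 CPM added before a ratio. Genes with a mean of at least 20 CPM over both clusters and brains were measured. Because that filter averages the clusters, a gene could pass through its level in cluster 5 by itself, and such a gene had to be higher there. Against cluster 0, 943 of 5949 measured genes (15.9%) were at least 2-fold higher in cluster 5 in both brains and 14 (0.235%) at least 2-fold lower. Against cluster 1, 732 of 5991 (12.2%) were higher and 16 (0.267%) lower. Of the genes that reached 20 CPM in cluster 0 by itself, a filter added after seeing the data, 570 of 4923 (11.6%) were higher, and 470 of 5031 (9.34%) against cluster 1. Without metastasis 1 the counts were 1578 and 76 against cluster 0, and 1337 and 66 against cluster 1.

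These counts depend on the scale. The median log2 ratio of all measured genes was 0.42 and 0.49 against cluster 0 in the 2 brains, and 0.42 and 0.50 against cluster 1. With ribosomal protein genes left out of the totals the mean over brains was 0.30 and 0.31. With TMM scaling, which lines up the bulk of genes, the median became -0.19 against cluster 0, with 78 genes higher and 567 lower. Against cluster 1 it became -0.13, with 48 genes higher and 404 lower. The lists below are therefore read against the median of all measured genes. Per cell, where depth is not scaled away, 15 of the 5949 genes had more UMIs per member than per cluster 0 cell in both brains, and 447 of 5991 had more than in cluster 1. Values agreed across genes between the brains, with Pearson's r of the log2 ratios of 0.90 against cluster 0 and 0.88 against cluster 1.

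Notch2, a receptor for membrane-bound ligands of neighbouring cells, led the genes higher than in cluster 0. It stood at 353 and 263 nuclear CPM in cluster 5 and at 33.6 and 38.7 in cluster 0, a mean log2 ratio of 2.92. Against cluster 1 the ratio of Notch2 was 0.85 and 0.49, near the median of all genes. Abhd2, an alpha/beta hydrolase, stood at 108 and 125 against 14.3 and 16.7, and Slc39a1, a zinc importer, at 332 and 286 against 64.8 and 64.8. Slc39a1 was lower than in cluster 1, by 0.56 and 0.61 on the log2 scale. Notch2 and Slc39a1 thus also differed between clusters 0 and 1. For Slc39a1 cluster 5 lay between them, and for Notch2 above both.

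Ogt, Spty2d1, AC191865.2 and Prpf39 were past 2-fold against both clusters. Ogt, the enzyme that adds N-acetylglucosamine to nuclear and cytosolic proteins, stood at 108 and 171 nuclear CPM in cluster 5, 20.6 and 27.6 in cluster 0, and 22.1 and 31.1 in cluster 1. Spty2d1, a histone chaperone, stood at 146 and 244 against 32.4 and 44.2 in cluster 0 and 28.7 and 42.3 in cluster 1. The gene listed as AC191865.2 stood at 321 and 535 against 59.6 and 96.3 in cluster 0, and had the highest mean log2 ratio against cluster 1, 2.47. Prpf39, a splicing factor, stood at 118 and 130 against 26.5 and 22.3 in cluster 0. Pan3, of a deadenylase complex, stood at 94.4 and 109 against 19.1 and 17.4 in cluster 0, but was not past 2-fold against cluster 1, with a mean log2 ratio of 0.84. Ogt, Spty2d1, AC191865.2, Prpf39 and Pan3 kept log2 ratios of 1.48 to 1.68 against cluster 0 with TMM scaling.

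Against cluster 1 the 10 highest genes also included Spp1 (osteopontin, a secreted phosphoprotein), at 61.6 and 76.3 CPM against 11.8 and 14.6. Bmpr2, a receptor of bone morphogenetic proteins, stood at 70.8 and 69.0 against 12.999 and 15.2. Huwe1, a very large ubiquitin ligase, stood at 99.7 and 92.0 against 19.7 and 23.0, and Hnrnph1, an RNA-binding splicing regulator, at 207 and 221 against 48.2 and 55.3. Rsrp1, Emc1 and Gm26532 completed the group, with mean log2 ratios of 2.00, 1.95 and 2.04.

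The lowest gene in cluster 5 in both comparisons was Hist1h2ap. Hist1h2ap, a replication-dependent histone H2A gene, stood at 108 and 113 CPM against 317 and 379 in cluster 0 and 272 and 327 in cluster 1. Taf10, of the general transcription factor TFIID, stood at 132 and 110 against 346 and 321 in cluster 0. Mpc1, of the mitochondrial pyruvate carrier, stood at 59.0 and 75.3 against 146 and 190. Ybx1, an RNA-binding protein, stood at 772 and 605 against 1580 and 1515. Rpl32, Rplp0, Rpl17 and the processed copy Rpl27-ps3 had mean log2 ratios from -1.22 to -1.16 against cluster 0. Rpl27-ps3 shares sequence with its parent gene, so its count is uncertain.

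Nuclear subunits of the respiratory chain did not follow the mitochondrial ones. Of 36 complex I subunits, all measured, 34 lay below the median of all genes, with a list median of -0.27 against cluster 0 and -0.21 against cluster 1, where all genes had 0.46 and 0.47. Ndufb9, the most abundant, stood at 759 and 992 nuclear CPM in cluster 5 and at 659 and 858 in cluster 0, a mean log2 ratio of 0.21. Ndufb5 stood at 169 and 198 against 384 and 379, a mean of -1.04. Ndufs1, the largest subunit, was the only member past 2-fold in both brains, at 76.1 and 85.7 against 26.8 and 24.3. Per cell the 36 genes together held 22.1 and 26.2 UMIs in cluster 5 and 118 and 149 in cluster 0.

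The other complexes gave like values. List medians against cluster 0 and cluster 1 were -0.24 and -0.10 for the 4 subunits of complex II, -0.29 and -0.17 for the 9 of complex III, -0.23 and -0.23 for the 12 of complex IV, and -0.32 and -0.25 for the 16 measured of 17 in complex V. Sdha, the flavoprotein of complex II, was past 2-fold, at 159 and 199 CPM against 65.9 and 63.0 in cluster 0. Atp5b, the catalytic subunit of ATP synthase, had log2 ratios of 0.30 and 0.55 against cluster 0, near the median of all genes. Cox4i1, of complex IV, stood at 1374 and 1546 against 1476 and 1948. Relative to the median of all genes these 5 lists lay lower under TMM scaling, equal weight of cells, matched nuclear UMIs, removal of ribosomal protein genes and removal of cells with marker UMIs, with a range of -0.90 to -0.45 against cluster 0.

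Genes that serve mitochondrial DNA and RNA gave a mixed picture. Of 21 listed, 12 were measured, with a median of 0.35 against cluster 0 and 0.40 against cluster 1, near that of all genes. Lrpprc, which stabilises mitochondrial messages, stood at 85.2 and 85.7 CPM against 28.9 and 25.1 in cluster 0, and Pnpt1, a mitochondrial RNA exonuclease, had log2 ratios of 1.75 and 1.42. Both were past 2-fold in both comparisons. Tfam, which packs and transcribes mitochondrial DNA, stood at 40.6 and 34.5 against 36.7 and 33.98 in cluster 0. Tfam and 6 other members thus lay below the median of all genes.

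Mitochondrial ribosomal proteins had a median of -0.36 against cluster 0, with 73 of 76 below the median of all genes and Mrps24 past 2-fold, at 207 and 172 CPM against 436 and 387. Components of the import machinery had a median of -0.27, with 12 of 13 below that of all genes. Mitochondrial chaperones and proteases stood higher, at 0.79 against cluster 0 and 0.72 against cluster 1, with 8 of 12 above that of all genes. Among them Hspd1, the matrix chaperonin, stood at 837 and 709 against 497 and 388 in cluster 0, and Lonp1, a matrix protease, at 132 and 143 against 57.6 and 57.4. Iron-sulfur and assembly factors had a median of -0.12, with all 17 measured below that of all genes. Tricarboxylic acid cycle enzymes had a median of 0.40, with Dld past 2-fold, and genes of mitochondrial dynamics and mitophagy had -0.03, with Opa1, a fusion GTPase, past 2-fold in both comparisons, although Opa1 was below 20 CPM in clusters 0 and 1. Genes that overlap ribosomal RNA repeats had 0.95, with Gm42418 past 2-fold of 2 measured.

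**Figure D4:**
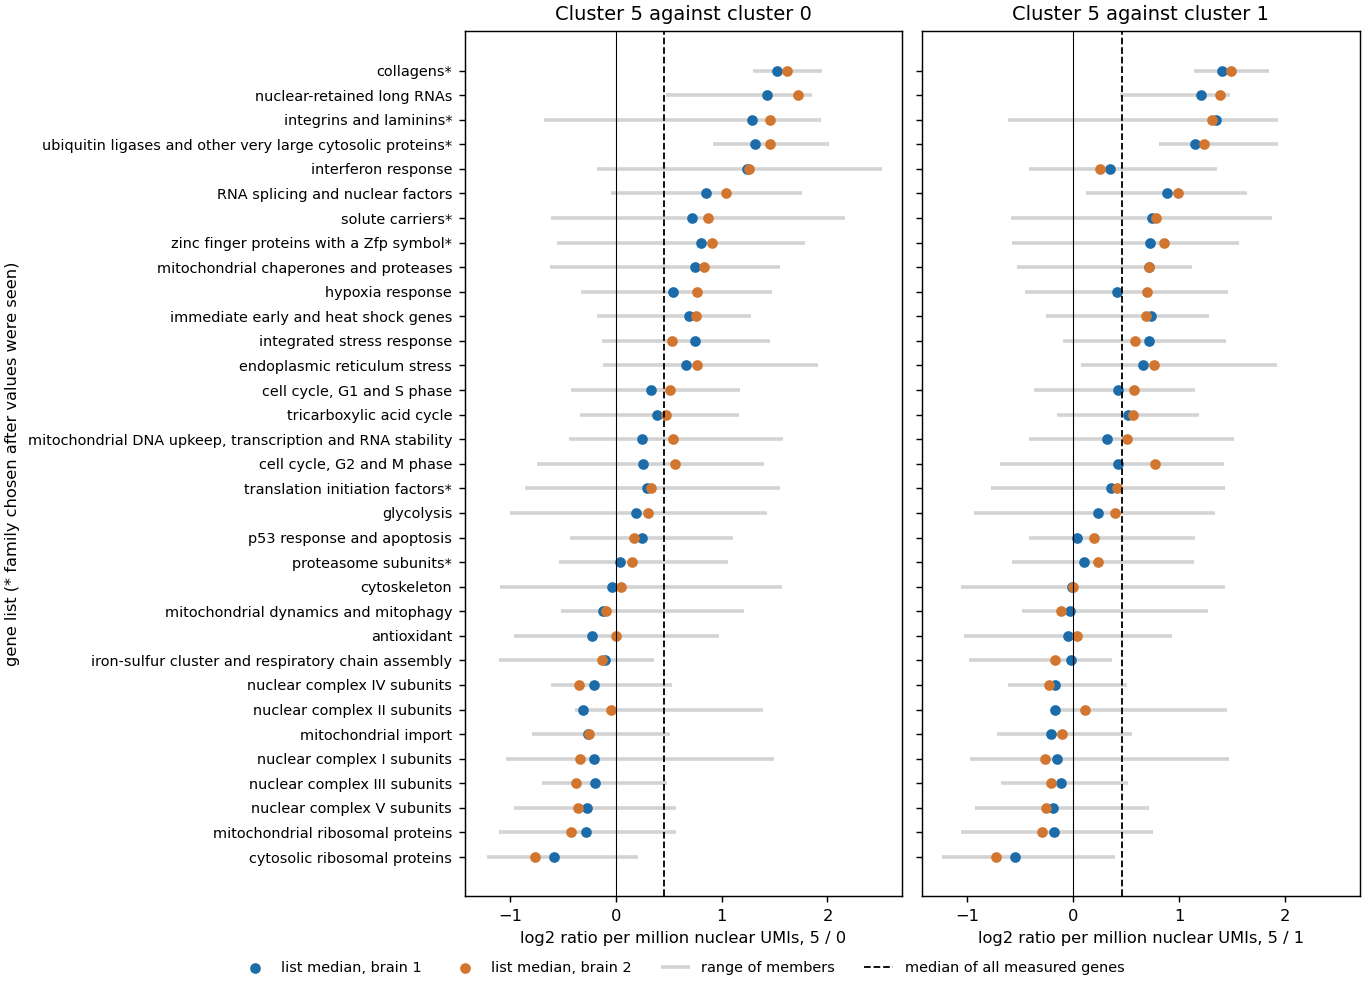
Median log2 ratio of each functional gene list with at least 4 measured members (cell type marker lists are not drawn) on nuclear CPM, cluster 5 over cluster 0 (left) and over cluster 1 (right), with a point per brain and a grey line over the range of members; the dashed line is the median of all measured genes, 0.46 and 0.47. Collagens and nuclear-retained long RNAs lie farthest to the right, and cytosolic ribosomal proteins lie farthest to the left at -0.68 and -0.66.

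Messages of cytosolic ribosomal proteins made up 21.9% and 19.1% of nuclear UMIs in cluster 5, against 32.9% and 32.5% in cluster 0 and 32.4% and 32.1% in cluster 1. All 84 measured members lay below the median of all genes in both comparisons. The list median was -0.68 against cluster 0 and -0.66 against cluster 1. At least 2-fold lower were 5 and 6 members, beside 0.235% and 0.267% of all measured genes. Rpl32 stood at 4617 and 3859 CPM against 9539 and 10137 in cluster 0, and Rpl13, the most abundant, at 14862 and 12674 against 22494 and 22956. Both genes were thus lower than in cluster 0 in both brains.

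Nuclear-retained long RNAs showed the opposite. Of 13 listed, 5 were measured, with a median of 1.54 against cluster 0 and 1.30 against cluster 1. Of these, Malat1, Neat1, Kcnq1ot1 and Tug1 were past 2-fold in both, beside 15.9% and 12.2% of all measured genes. Malat1, which sits in nuclear speckles, had log2 ratios of 1.36 and 1.72 against cluster 0. It stood at 22024 and 20757 CPM in cluster 5, and at 8419 and 7401 in cluster 7. In cluster 2 it stood at 22274 and 22513, and in cluster 6 at 21350 and 17768. The level of Malat1 was thus not particular to cluster 5. Per cell Malat1 had 66.4 and 70.7 UMIs in cluster 5, 119 and 101 in cluster 0, and 73.4 and 60.4 in cluster 1. Neat1, the scaffold of paraspeckles, had 1.01 and 1.35 UMIs per member and 1.41 and 1.54 in cluster 0. Against cluster 1 the members thus held about as much of these RNAs per cell while holding less nuclear RNA in all. In cells matched on nuclear UMIs, the list's median relative to all genes was 0.15 against cluster 0, in place of 1.08.

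Splicing and nuclear factors had a median of 0.93 against cluster 0 and 0.94 against cluster 1, with 24 and 22 of 28 above the median of all genes. Luc7l2, a component of the early spliceosome, stood at 460 and 531 CPM against 141 and 144 in cluster 0 and 177 and 183 in cluster 1. Son, a speckle scaffold, had log2 ratios of 1.44 and 1.69 against cluster 0. Of the 28 genes, 11 were past 2-fold against cluster 0, where 15.9% of all measured genes were, and 10 against cluster 1, where 12.2% were. Among the members that reached 20 CPM in the other cluster by itself, 9 of 26 and 9 of 27 were past 2-fold, with medians of 0.91 and 0.93.

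Long genes were higher than short ones. Of the measured genes, 97.8% matched the RefSeq table, and they were split into 5 groups of like size by genomic span from start to end. Against cluster 0 the median log2 ratio was -0.10 in the shortest group (0.374 to 7.26 kb), then 0.22, 0.44 and 0.70, and 0.95 in the longest group (55.1 to 1185 kb). The share of genes past 2-fold higher went from 4.04% to 33.3% over these groups, around the 15.9% of all measured genes. The groups include genes that passed the filter through cluster 5 by itself, which had to be higher there. The split was not repeated without those genes. Against cluster 1 the medians went from -0.04 to 0.84. Spearman's rho of span and log2 ratio across genes was 0.51 and 0.47, and 0.49 and 0.45 without ribosomal protein genes; genes are not independent replicates. The median level in cluster 5 went over the groups from 94.3 to 55.6 CPM, so span and level go together in part.

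Further families were named after their values were seen. Of 44 collagen genes 10 were measured, with a median of 1.58 against cluster 0 and 1.47 against cluster 1. All 10 were past 2-fold against cluster 0 and 9 against cluster 1, beside 15.9% and 12.2% of all measured genes. In each comparison 8 of the 10 reached 20 CPM in the other cluster by itself, and those had medians of 1.58 and 1.47. Col6a3, a subunit of microfibrillar collagen VI, stood at 471 and 642 CPM against 146 and 132 in cluster 0 and 146 and 152 in cluster 1, and its mean per cell was 1.42 and 2.18 against 2.01 and 2.12 in cluster 0. Integrins and laminins had 1.46 and 1.30, with 9 of 11 past 2-fold in both comparisons, and Itgb1, the common beta subunit, stood at 311 and 416 against 131 and 162 in cluster 0. A set of very large cytosolic proteins had 1.38 and 1.12, and Flna, a long actin cross-linker of the cytoskeleton list, had log2 ratios of 1.42 and 1.73 against cluster 0. Proteasome subunits had 0.10 and 0.13, with 0 of 37 past 2-fold. In cells matched on nuclear UMIs the collagens lay 0.57 above the median of all genes against cluster 0, in place of 1.12.

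Single chaperones of the endoplasmic reticulum were past 2-fold. Their list had a median of 0.62 in both comparisons, 0.17 and 0.15 above that of all genes. Of its 15 members 5 were past 2-fold against cluster 0, beside 15.9% of all measured genes, and 4 against cluster 1, beside 12.2%. Of the 13 that reached 20 CPM in the other cluster by itself, 3 were past 2-fold in each comparison. Hspa5 (BiP), the main chaperone of that compartment, stood at 725 and 741 CPM in cluster 5, 208 and 176 in cluster 0, and 210 and 171 in cluster 1, with log2 ratios of 1.78 and 2.04 against cluster 0. Its mean per cell was 2.19 and 2.52 UMIs in cluster 5, 2.87 and 2.83 in cluster 0, and 1.61 and 1.32 in cluster 1. Hsp90b1 (GRP94) had log2 ratios of 1.25 and 1.51 against cluster 0, Pdia4, a disulfide isomerase, 1.34 and 1.54, Dnajb9, a co-chaperone, 1.19 and 1.57, and Hyou1, a nucleotide exchange factor, 1.63 and 1.39. Dnajb9 and Hyou1 were below 20 CPM in cluster 0 and passed the filter through cluster 5. Pdia6 stood at 1039 and 925 against 565 and 406 and was past 2-fold in metastasis 2 alone. With TMM scaling the list median was -0.07 against cluster 0, above that of all genes, while Hspa5 stayed at a mean of 1.19.

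The promoters of Hspa5 and Hsp90b1 are shown because these chaperones share a control element, the endoplasmic reticulum stress element, whose letters are CCAAT, any 9 bases, and CCACG. Sequences are from RefSeq for GRCm38.p6, 300 bases each, read along the gene, with matches on either strand in capitals. The Hspa5 window is chr2:34771840-34772139 on the plus strand with a match that starts at base 186, and the Hsp90b1 window is chr10:86705395-86705694 on the minus strand with a match that starts at base 39 and another on the opposite strand.
Hspa5: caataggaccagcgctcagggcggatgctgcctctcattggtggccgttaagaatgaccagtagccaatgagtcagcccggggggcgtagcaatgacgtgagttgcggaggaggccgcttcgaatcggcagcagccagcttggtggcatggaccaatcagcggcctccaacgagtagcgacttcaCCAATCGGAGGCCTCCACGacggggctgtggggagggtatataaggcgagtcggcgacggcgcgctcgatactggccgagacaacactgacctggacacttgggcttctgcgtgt
Hsp90b1: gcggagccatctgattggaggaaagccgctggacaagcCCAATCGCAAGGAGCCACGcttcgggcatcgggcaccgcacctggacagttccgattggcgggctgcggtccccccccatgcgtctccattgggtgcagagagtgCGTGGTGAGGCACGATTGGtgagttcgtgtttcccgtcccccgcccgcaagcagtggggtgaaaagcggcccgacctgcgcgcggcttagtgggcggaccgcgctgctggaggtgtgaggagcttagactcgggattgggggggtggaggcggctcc
Of the 13 list members with a promoter in the table, 6 (46.2%) held the element on either strand, namely Calr, Creld2, Dnajc3, Hsp90b1, Hspa5 and Pdia6, against 39 of 32851 promoters in all (0.119%). Pdia4 and Dnajb9, past 2-fold in both comparisons, are not among those 6, and Calr, which is, had log2 ratios of 0.34 and 0.77 against cluster 0. A match is a description of the letters and not a measured binding site.

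Against cluster 0 the integrated stress response, immediate early and hypoxia lists lay farther above the median of all genes than the endoplasmic reticulum list. Against cluster 1 the hypoxia list did not, at 0.12 above that median against 0.15. Cell cycle lists lay near the median of all genes, and the p53 list lay below it. The integrated stress response had a median of 0.64 against cluster 0 and 0.65 against cluster 1; its factor Atf4 had log2 ratios of 0.75 and 0.53 against cluster 0, and Ddit3 (CHOP) had 1.15 and 0.28. Immediate early and heat shock genes had 0.74 and 0.77, with Jun and Ier5 past 2-fold. The hypoxia list had 0.76 and 0.58, with Vegfa, Ero1l, P4ha2 and Bhlhe40 past 2-fold, and Vegfa, a vascular growth factor, at 47.2 and 54.4 CPM against 18.6 and 15.6 in cluster 0. p53 and apoptosis genes had 0.25 and 0.12, with 10 of 13 below the median of all genes and Mdm2, the ligase of p53, past 2-fold. Vegfa and Mki67 were below 20 CPM in cluster 0. Cell cycle lists had 0.42 and 0.34 against cluster 0 for G1 and S and for G2 and M, with Mki67, a proliferation marker, at 39.3 and 41.8 against 13.1 and 11.6. Under at least 1 alternative the hypoxia, immediate early and cell cycle lists, and against cluster 0 also the glycolysis and tricarboxylic acid cycle lists, moved to the other side of the median of all genes.

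Glycolytic genes split by gene. Slc2a1, the glucose transporter GLUT1, stood at 115 and 129 CPM against 51.2 and 54.8 in cluster 0, and Hk2, the first kinase of the pathway, had log2 ratios of 1.01 and 1.17. Gapdh stood at 1966 and 1932 against 3562 and 4279 in cluster 0, a mean log2 ratio of -1.001. The list median was 0.28 against cluster 0 and 0.32 against cluster 1, with 9 and 8 of 15 below that of all genes. Antioxidant genes had -0.12 and -0.02, with Gpx1 past 2-fold lower against cluster 1 alone.

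The interferon list differed by comparison. Against cluster 0 it had a median of 1.30, with 9 of 15 measured past 2-fold, beside 15.9% of all measured genes. Of these 15, 5 passed the filter through cluster 5 by itself, Ifit1 among them. The other 10 had a median of 0.61, with 4 past 2-fold. Ifit1, which binds foreign RNA caps, stood at 40.6 and 56.5 CPM in cluster 5, 4.59 and 3.91 in cluster 0, and 22.4 and 21.6 in cluster 1. Isg15, a ubiquitin-like modifier, stood at 250 and 182, 60.6 and 72.9, and 144 and 149 in the same order. Against cluster 1 the median was 0.46, at the level of all genes, and only H2-K1, a class I antigen-presenting molecule, was past 2-fold of 18 measured. Ifit1 rests on 31 and 54 UMIs in cluster 5. The difference between the comparisons was not tested.

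Actb showed that cluster 5 was not simply placed on the side of cluster 0 or of cluster 1. Actb stood at 7923 and 6813 CPM in cluster 5, 3552 and 3940 in cluster 0, and 13538 and 14466 in cluster 1. In each brain the level of Actb in cluster 5 lay between those of clusters 0 and 1. Tmsb10, an actin-binding peptide with a short gene, stood at 2229 and 1637 against 4094 and 4068 in cluster 0 and 4019 and 3954 in cluster 1.

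The members differed among themselves along the mitochondrial share. Members of each brain were split into 4 share groups of like size by their percent of mitochondrial UMIs. From the lowest to the highest share group the median of nuclear UMIs went from 4881 to 1177 in metastasis 1 and from 4690 to 1402.5 in metastasis 2. The median of mitochondrial UMIs went from 217.5 to 287 and from 200 to 308, so nuclear UMIs varied more over the share groups than mitochondrial ones. Ribosomal protein messages went from 25.4% to 17.4% of nuclear UMIs in metastasis 1 and from 21.4% to 15.2% in metastasis 2. Nuclear-retained long RNAs went from 1.78% to 3.66% and from 1.74% to 3.33%, and splicing factors from 0.684% to 0.999% and from 0.708% to 1.03%. Collagens went from 0.147% to 0.299% and from 0.211% to 0.402%. Choroid plexus markers went from 0.0955% to 0.604% and from 0.114% to 0.984%, a larger change than that of the other lists named here. Most of these UMIs came from the single gene Ttr (below). Nuclear complex IV subunits went from 0.683% to 0.781% in metastasis 1 and from 0.681% to 0.676% in metastasis 2. Complex I subunits went from 0.732% to 0.724% and from 0.788% to 0.707%. Complex V subunits went from 0.759% to 0.694% and from 0.777% to 0.686%. Mitochondrial ribosomal proteins went from 0.960% to 0.753% and from 0.894% to 0.717%. Ribosomal protein, nuclear-retained, splicing and collagen lists thus changed in the direction in which cluster 5 differed from clusters 0 and 1. Complex V and mitochondrial ribosomal proteins also did so in both brains. Complex I did so in metastasis 2 and hardly changed in metastasis 1. Complex IV went up in metastasis 1 and hardly changed in metastasis 2.

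Between the highest and the lowest share group, 44 of 1938 genes with at least 100 CPM were at least 2-fold higher in both brains and 9 were lower. Pearson's r of the log2 ratios between brains was 0.58. Besides Ttr and Enpp2 (below), Abhd2 had log2 ratios of 2.69 and 1.78, AC191865.2 of 1.94 and 1.74, and Prpf39 of 1.88 and 1.74. Notch2 stood at 762 and 405 CPM in the highest share group and at 137 and 176 in the lowest. Ybx1 stood at 487 and 272 in the highest and at 988 and 798 in the lowest, and Isg15 at 106 and 88.3 against 262 and 228. The median over all 1938 genes was -0.01. The highest share group held 94502 and 135914 nuclear UMIs in the 2 brains, so 100 CPM there is a small number of molecules.

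Malat1 per cell went from 90.5 to 53.2 UMIs in metastasis 1 and from 91.0 to 62.3 in metastasis 2 from the lowest to the highest share group, a smaller drop than that of all nuclear UMIs. Krt8 did not have a common direction, at 503 and 593 CPM in metastasis 1 and 928 and 677 in metastasis 2 in the lowest and the highest share group. Vim went from 1419 to 825 and from 1837 to 1001 CPM.

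**Figure D5:**
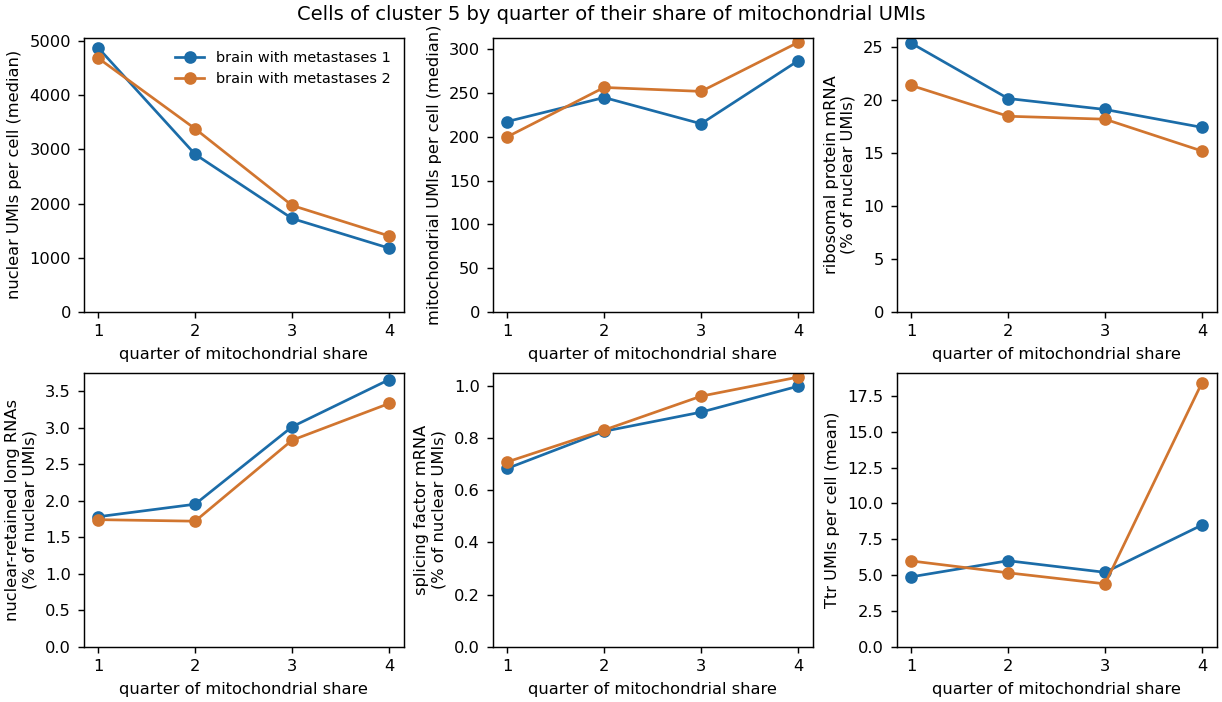
Cells of cluster 5 by share group, from 1 (lowest percent of mitochondrial UMIs) to 4 (highest), on the horizontal axis, with a line per brain: median nuclear and mitochondrial UMIs per cell, the percent of nuclear UMIs from ribosomal protein genes, nuclear-retained long RNAs and splicing factors, and mean Ttr UMIs per cell. Nuclear UMIs go from 4881 to 1177 and from 4690 to 1402.5 over the share groups, while mitochondrial UMIs go from 217.5 to 287 and from 200 to 308.

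Markers of most other cell types were higher in cluster 5 than in cluster 0 on the scaled measure, and per cell mostly not. Neuron markers were lower on the scaled measure, at 66.9 and 73.2 CPM against 75.4 and 82.5 in cluster 0. Of the 5 neuron markers, Snap25, Rbfox3, Syt1 and Stmn2 had 0 UMIs in cluster 5. This value therefore rests on Tubb3, a tubulin, by itself. Erythrocyte and B cell markers were lower than in cluster 0 in metastasis 1 alone. Choroid plexus markers summed to 2129 and 2581 nuclear CPM in cluster 5, 604 and 511 in cluster 0, and 700 and 592 in cluster 1, with 0 of 7 members at 0. Per cell they summed to 6.42 and 8.79 UMIs in cluster 5, 8.34 and 8.22 in cluster 0, and 5.38 and 4.57 in cluster 1. Ttr, the thyroid hormone carrier made by that tissue, made up most of these sums, at 2035 and 2491 CPM in cluster 5. It stood at 3196 and 2714 CPM in the immune cluster 2. Its mean was 7.37 UMIs per member, 8.01 in cluster 0, 6.15 in cluster 2 and 578 in cluster 7. Over the share groups mean Ttr went from 4.88 to 8.49 UMIs per member in metastasis 1 and from 5.99 to 18.4 in metastasis 2. Of the 534 members 5 held at least 50 Ttr UMIs, and their part in these means was not tested. Enpp2, another gene of that list, stood at 317 and 206 CPM in the highest share group and at 20.8 and 23.3 in the lowest. The highest group held 94502 and 135914 nuclear UMIs, so its Enpp2 level rests on a small number of molecules. Pan-immune markers summed to 148 and 157 CPM against 51.5 and 47.8 in cluster 0, and to 0.447 and 0.534 UMIs per cell against 0.710 and 0.769 in cluster 0 and 0.448 and 0.410 in cluster 1. Monocyte and macrophage markers summed to 231 and 209 CPM against 74.3 and 64.9, and to 0.696 and 0.712 per cell against 1.03 and 1.04 in cluster 0 and 0.644 and 0.590 in cluster 1. Dendritic cell markers summed to 0.182 and 0.139 per cell against 0.124 and 0.136 in cluster 1. Per cell, choroid plexus and monocyte markers were thus above cluster 1 in both brains. Dendritic markers were so narrowly in metastasis 2, from 39 UMIs, and NK cell markers rest on 2 and 6 UMIs. Microglia markers were below cluster 1, at 0.490 and 0.609 per cell against 0.674 and 0.704. Mural markers were too, at 0.245 and 0.238 against 0.369 and 0.358. Astrocyte, neuron, neutrophil, ependymal and erythrocyte markers were also below cluster 1 in both brains. Endothelial markers summed to 0.0751 and 0.146 UMIs per member and T cell markers to 0.0277 and 0.0142. The part of RNA from other cells in the nuclear differences was not tested.

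Surface tags were read apart from the RNA, and over 2 brains no test was run on them. CD45, the pan-leukocyte antigen, had a mean of 5.91 and 2.67 tags per member and a median of 1 in both brains. In cluster 0 the mean was 1.94 and 2.29, in cluster 1 it was 1.71 and 1.76, and in cluster 2 it was 204 and 202. CD11b, carried by myeloid cells, had a mean of 5.45 and 3.27 in cluster 5, and 2.99 and 3.44 in cluster 0. Its mean was 2.26 and 2.59 in cluster 1, and 250 and 272 in cluster 2. Median CD11b was 2 in cluster 5 in both brains and 3 in cluster 0, and median CD45 in cluster 0 was 2. The higher means of CD11b and CD45 in metastasis 1 than in cluster 0 thus came from the upper tail of its cells. Means of CD25, CD4, CD3 and CD86 were also above cluster 1 in both brains, with CD4 at 0.664 and 0.829 against 0.517 and 0.503. Against cluster 0, CD25, CD4 and CD3 were lower in both brains, and CD86 in metastasis 1 alone. The hashing tag of the cell's own brain had a mean of 83.6 and 181 in cluster 5, 115 and 236 in cluster 0, and 82.9 and 164 in cluster 1. The hashing margin, a score of how clearly a cell belongs to its brain, had a median of 1.24 and 1.12 in cluster 5 against 1.67 and 1.37 in cluster 0. The medians of that tag were 54 and 133 in cluster 5, 96 and 179 in cluster 0, and 64 and 125 in cluster 1. Against cluster 1 the median was thus lower in metastasis 1 and higher in metastasis 2.

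The 2 brains agreed closely within cluster 5. Pearson's r of the levels of 1901 genes was 0.97, and 4 genes were at least 2-fold apart. Vps28, of the endosomal sorting machinery, stood at 64.3 and 139 CPM, and Sin3b, a corepressor, at 66.9 and 142. Ptcra and Lepr were lower in metastasis 2, by 1.81 and 1.14 on the log2 scale. Ptcra was also lower there in cluster 0, by 1.18, and in cluster 1, by 1.03, so this difference was not particular to cluster 5.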

How the data were processed

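RNA, surface tags and hashing tags were read in 12421 cells of 4 brains. The deposited tables hold UMI counts and tag counts as whole numbers, not normalized by the authors, and a per-cell table with the authors' cluster number, percent of mitochondrial UMIs and hashing margin, a score. The submitters' processing notes list Cell Ranger 3.0.2, Seurat 3.0.1 and the build mm10; their settings were not known here. The members and the gene lists were chosen with earlier results of these data known, and 7 families after values were seen. UMIs were summed per cluster and brain (Python 3.11.15, pandas 2.3.3). Nuclear CPM (per 1000000 UMIs) leave out the 13 mitochondrial genes, with a pseudocount of 5, a mean of at least 20 and a 2-fold threshold in both brains, and fold ratios on this scale understate low genes. TMM factors came from edgeR 4.0.16. Named genes were the 13 mitochondrial genes, the 10 highest and 10 lowest past the threshold in each comparison, and in each list the 3 most abundant and the 3 with the largest ratio; others were named after their values were seen. The counting was tested on simulated data. No doublet removal or correction for free RNA was made here, and 31053 genes are in the table. Alternatives were another threshold, pseudocount and filter, other scalings, equal weight of cells, matched cells, and each brain left out.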

Additional observations from a re-analysis of the deposited data

How the results depend on the processing

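The mitochondrial share was higher in cluster 5 under every alternative run, with log2 ratios of 1.80 to 3.22 against cluster 0 and 2.53 to 3.19 against cluster 1. Leaving out a brain gave 2.82 to 3.05 and 2.77 to 2.96. Against cluster 0 the value was 2.67 without ribosomal protein UMIs, 1.80 in cells matched on nuclear UMIs, and 3.22 in cells with no marker UMI other than Ttr, an alternative chosen after seeing the data. Against cluster 1 these were 2.61, 2.53 and 3.19, and the median over cells gave 3.00.

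Counts of nuclear genes moved more. Higher than in cluster 0 were 2172 genes at 1.5-fold, 78 with TMM factors and 397 in matched cells, and leaving out a brain gave 1113 to 1578. Lower were 195 at 1.5-fold, 48 without ribosomal protein genes, 30 with mitochondrial UMIs kept in the total, 567 with TMM, 38 with equal weight of cells, 121 in cells with no marker UMI other than Ttr, 24 with cluster 4 in place of cluster 0, and 20 to 76 with a brain left out. Higher than in cluster 1 were 2052, 451 without ribosomal protein genes, 48 with TMM, and 954 to 1337 with a brain left out. Lower were 168, 43, 30, 404, 32 and 107 in the order given for cluster 0, and 21 to 66. Of the 943 genes higher than in cluster 0, 262 (27.8%) were shared with the matched cells, which are few, and all 78 genes called with TMM were among them.

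Of the medians of function lists and added families that had a common sign in both brains, 25 changed sign, all but 5 with TMM scaling. The cytoskeleton list, whose brains differed in sign, went from 0.025 to -0.62 against cluster 1 with TMM, and marker lists were not part of this comparison. With TMM, against cluster 0 and cluster 1, they were -0.25 and -0.14 for mitochondrial DNA upkeep, -0.27 and -0.080 for the tricarboxylic acid cycle, -0.070 and -0.018 for endoplasmic reticulum stress, -0.28 and -0.12 for G1 and S phase, -0.32 and -0.092 for G2 and M phase, -0.44 and -0.34 for glycolysis, -0.43 and -0.50 for p53, -0.61 and -0.49 for the proteasome and -0.39 and -0.22 for translation initiation factors. It was -0.068 for the integrated stress response against cluster 0 and -0.16 for interferon against cluster 1. Without ribosomal protein genes the proteasome had -0.14 and -0.084, and p53 had -0.10 against cluster 1. In matched cells antioxidant genes had 0.089 against cluster 0 and import had 0.050 against cluster 1.

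Cells matched on the mitochondrial share were not compared, as the shares hardly overlap, and cells with no marker UMI at all were too few (0 to 29 per cluster and brain). No paired analysis was possible because clusters made from the same RNA give no test that takes a block; each ratio was itself taken within a brain, and surface tags were left as a description over 2 brains, with no paired test run. Depth limits genes near the filter of 20 CPM, which rest on few UMIs in cluster 5.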

Other observations

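Cluster 5 also held 14 cells with a hashing tag of a naive brain, 10 of 572 cells (1.75%, exact 95% binomial interval 0.841 to 3.19) in naive 1 and 4 of 315 (1.27%, 0.347 to 3.22) in naive 2. Among clusters 0, 1, 3, 4 and 5 combined they made up 12.7% of 79 cells in naive 1 (6.24 to 22.0). In naive 2 they made up 17.4% of 23 cells on that base (4.95 to 38.8). The members made up 6.41% and 6.44% on the same base. The 14 cells with a naive tag were not members. Their mitochondrial shares ran from 2.81% to 23.5%, and their nuclear UMIs from 397 to 10541 with a median of 957. The 50 leading genes of cluster 0 made up 0% to 2.98% of their nuclear UMIs, with a median of 1.94%, against 2.53% in the members. Ttr had 0 to 243 UMIs in these cells, with at least 50 UMIs in 5 of the 14 cells and in 5 of the 534 members. Their hashing margin had a median of 2.28, against 0.322 in the 40 naive cells of cluster 0 and 1.18 in the members.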
